A study of Mus musculus with 22 samples.

Results

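Primary hepatocytes of C57Bl6 mice were held in cyclosporin A for 24 h or for 48 h, and the comparison described here is the passage of time under 50 µM of the drug. Its members were the 5 arrays whose sample titles in the deposited value table give 50 µM: 3 arrays at 48 h and 2 at 24 h, of 22 arrays in all. The remaining arrays were 3 at 10 µM for 48 h, 3 at 10 µM for 24 h, 6 with solvent for 48 h and 5 with solvent for 24 h. The labels number the experiments 1 to 3. At 50 µM the 48 h arrays were of experiments 1, 2 and 3 and the 24 h arrays of experiments 2 and 3. Solvent arrays of the same time could share a number, as replicates 1 and 2 at 48 h did (experiment 1). The tests treated all arrays as independent unless a block is named. The dose series recorded for every 50 µM sample, at either time, was IC20-24h, and for every 10 µM sample IC20-48h. Solvent samples of both series were among the controls, and the tests did not use the series. All cells, treated or not, received 0.5% DMSO, in wells of cells grown to near confluence in medium with serum, and no genotype other than the strain is named. The labels call the samples biological replicates without saying whether they came from separate animals, so p-values measure the spread between these samples only. A treatment text in the labels speaks of HepG2 cells; every other field gives primary mouse hepatocytes, and the arrays were made for mouse miRNAs.

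MicroRNAs (miRNAs) are short RNAs that lead the silencing machinery to messenger RNAs, mainly through their seed, the bases 2 to 8 from the 5′ end, so miRNAs with the same seed can share targets. Hepatocytes are dominated by miR-122-5p, which is made almost only in liver, and carry miR-192-5p, miR-194-5p, miR-148a-3p and miR-22-3p at high levels. Cyclosporin A binds cyclophilins and thereby blocks calcineurin, a phosphatase that activates T cells; it is used against graft rejection and can disturb bile flow in the liver.

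The mature sequences below belong to miRNAs that were higher (the first 6) or lower (the last 6) at 48 h than at 24 h, with the seed in capitals, so that seeds can be compared across the members described. They come from RefSeq on build GRCm38.p6, in which 17 of the 20 miRNAs described at length were matched by name.
miR-770-3p: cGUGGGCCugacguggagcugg
miR-452-5p: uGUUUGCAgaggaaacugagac
miR-3102-3p: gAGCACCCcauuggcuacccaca
miR-1934-3p: aGGAUGACgguggggcugguga
miR-6391: uGAGGCACgggaggacaaugu
miR-1906: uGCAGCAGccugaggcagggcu
miR-182-5p: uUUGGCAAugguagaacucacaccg
miR-361-5p: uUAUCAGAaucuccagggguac
miR-30a-5p: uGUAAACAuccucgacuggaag
miR-30e-5p: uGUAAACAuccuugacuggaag
miR-103-3p: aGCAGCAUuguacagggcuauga
miR-192-5p: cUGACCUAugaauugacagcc

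None of the 6 higher miRNAs shared its seed with another of the 231 tested miRNAs (of 292) that had a sequence in RefSeq. Among the lower ones, miR-30a-5p and miR-30e-5p have the same seed, which the tested miR-30c-5p also carries, and miR-103-3p shares its seed with miR-107-3p. On GRCm38.p6, miR-770-3p lies at chr12:109563744-109563765 on the plus strand within the span of the long non-coding RNA gene Meg3, of the imprinted Dlk1-Dio3 region. A copy of miR-1906 lies at chr12:109544588-109544609, also within the span of Meg3; RefSeq lists 2 loci with that mature sequence. The other higher miRNAs lie within the spans of protein-coding genes, miR-452-5p in Gabre (chrX:72262271-72262292), miR-3102-3p in Arhgef17 (chr7:100882307-100882329) and miR-6391 in Abcc4 (chr14:118592376-118592396), apart from miR-1934-3p, whose position (chr11:69663092-69663113) lies in no other listed gene. Among the lower miRNAs, miR-361-5p lies within Chm (chrX:113074867-113074888), miR-30e-5p within Nfyc (chr4:120772660-120772681) and miR-182-5p within the non-coding host gene Mirc35hg (chr6:30165962-30165986). The gene table used gives gene spans, not exons.

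Levels are single-colour fluorescence intensities of the brightest probe of a miRNA, relative to the 75th percentile of the probes that every array detected, on a log2 scale with a floor of -4.41; a value of 0 therefore equals that percentile. On this scale the 22 arrays had from 172 to 339 miRNAs above background, and the 5 arrays at 50 µM spanned nearly that range, with 176, 248 and 339 at 48 h (replicates 1, 2 and 3) and 244 and 231 at 24 h (replicates 2 and 3). The lowest signal that still counted as above background was -3.26, -4.33 and -5.54 on the 48 h arrays and -4.68 and -4.26 on the 24 h arrays, so replicate 1 at 48 h was the least sensitive of the 5 and replicate 3 at 48 h the most. The 24 h array of replicate 3 had a mean negative-control signal of 215.3 intensity units with a median of 1.34; the means on the other 4 arrays were 1.97 to 4.51. Of hepatocyte-enriched miRNAs, 11 of 12 were above background on at least 1 array of each time, while all 5 members of the miR-200 family, both erythroid markers, 5 of 6 stellate markers and 2 of 3 leukocyte markers were above background on none of the 5 arrays, and no endothelial marker was on the array under its listed name. The summed level of the 6 stellate markers ran from -1.71 to -1.54 at 48 h and from -1.75 to -1.71 at 24 h. That of the 3 leukocyte markers ran from -2.49 to -2.39 and from -2.61 to -2.55. Only 1 marker of each list was above background on any of these arrays, so much of each sum is the floor. In DMSO at 48 h the lowest sums were -1.82 and -2.82. The part of these markers in the results was not tested.

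The naming and the placement of the 5 arrays limit every result below. Only 1 of the 5 value-table columns held the array filed under its own sample; the other 4 held arrays filed under 10 µM samples of the same time and experiment. Grouped by the file names instead, 0 of 292 miRNAs passed the test for time at 50 µM (limma, lowest adjusted p 0.806; 11 at an unadjusted p under 0.05), and values under that naming stand beside the main results. With both doses pooled, which gives the same groups under either naming, 1 miRNA passed, miR-193a-3p, which fell. The 3 arrays at 48 h lay on slide 1, while the 24 h arrays of replicates 2 and 3 lay on slides 3 and 2, so within the 5 arrays time and slide cannot be told apart and no slide gives a within-slide value; a fit with slide as a block draws on the other groups' arrays.

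Between 24 h and 48 h under 50 µM cyclosporin A, 20 miRNAs rose (6.85% of the 292 tested) and 2 fell (0.685%), by limma at a Benjamini-Hochberg adjusted p under 0.05, and 17 of the 22 changed by more than 1.5-fold. The rises ran from 0.34 to 1.61 on the log2 scale. They were concentrated at the dim end of the scale: 4 of the 20, miR-6378, miR-1934-3p, miR-712-5p and miR-1906, were above background on all 22 arrays, and the median level of the 20 was -4.21 against -2.81 over all tested miRNAs. All 48 h arrays lay above all 24 h arrays for 71 miRNAs (24.3%) and below them for 68 (23.3%), and the 22 called miRNAs were among these. The median change over all tested miRNAs was 0.04, and it ran from -0.17 to 0.13 over the other scalings and the slide block. In the authors' deposited normalized values, 2 rose and 3 fell in place of 20 and 2, and with a floor 4 times lower 2 rose (miR-6378 and miR-770-3p) and 1 fell. Without the 24 h array of replicate 2, 12 rose and 1 fell, and without that of replicate 3, 14 rose and 0 fell (54 miRNAs had an unadjusted p under 0.05). A lower abundance of a miRNA in each cell and fewer cells that carry it cannot be told apart in these samples.

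**Figure D1:**
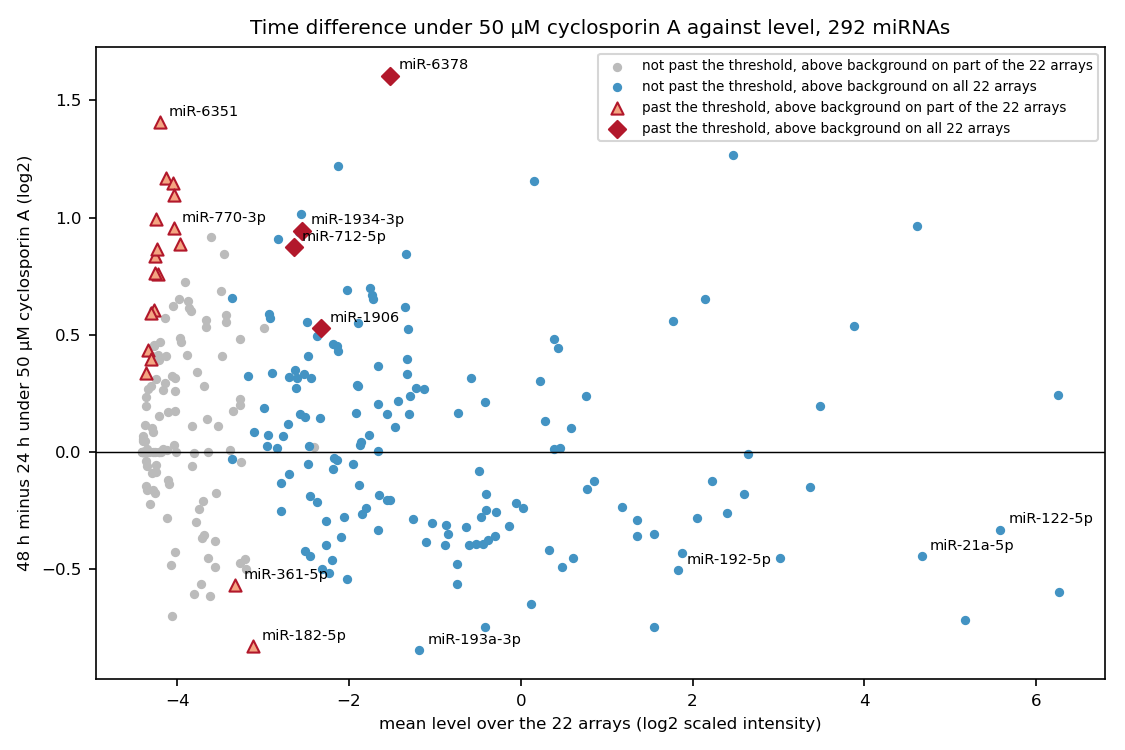
The time difference at 50 µM (48 h minus 24 h, log2, vertical axis) of each of the 292 tested miRNAs against its mean level over the 22 arrays (log2 scaled intensity, horizontal axis); symbols show whether the miRNA passed the test and whether it was above background on all 22 arrays. Of the 20 rises, 16 are triangles at the dim end on the left, and miR-6378 stands highest.

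The miRNA with the largest rise was miR-6378, an entry with no role stated here. Its level was 0.10, 0.21 and 0.62 on the 48 h arrays and -1.37 and -1.22 on the 24 h arrays. All 48 h values lay well above both 24 h values, and all 5 lay above every DMSO array, whose range was -2.14 to -1.59 at 48 h and -2.52 to -1.86 at 24 h. The rise was 1.61 ± 0.20 (SE; 3.04-fold, adjusted p 2.25e-05 by limma). It passed the test under 21 of 23 alternatives; it did not by the file names (0.86 ± 0.44, adjusted p 0.806) or with both doses pooled (1.04, adjusted p 0.108).

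The other 3 risers that were above background on every array changed less. miR-1934-3p measured -1.56, -1.89 and -1.49 at 48 h and -2.83 and -2.36 at 24 h, a rise of 0.94 ± 0.22 (adjusted p 0.00722 by limma). miR-712-5p, a miRNA cut from the precursor of ribosomal RNA, measured -1.56, -2.01 and -2.06 against -2.74 and -2.77. Its rise was 0.87 ± 0.26 (adjusted p 0.0481 by limma). With the mean of all its probes the rise was 1.86 (adjusted p 5.28e-07), and in the deposited values 1.65 (adjusted p 0.0035). It passed under 7 of 23 alternatives. miR-1906 measured -1.85, -1.74 and -1.69 against -2.26 and -2.32, a rise of 0.53 ± 0.15 (adjusted p 0.0314). In each of the 3 the groups were separate, with the 24 h values inside the range of the DMSO arrays and the 48 h values above it. By the file names the differences were 0.59, 0.76 and 0.44 with an adjusted p of 0.806 each, and without the 24 h array of replicate 2 none of miR-1934-3p, miR-712-5p and miR-1906 passed. miR-712-5p did not pass without any single one of the 5 arrays, and of the 5 fits that leave out 1 of these arrays, miR-1906 passed in the 1 without replicate 1 at 48 h.

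miR-770-3p, encoded within Meg3, measured -2.70, -2.63 and -2.66 at 48 h and -3.59 and -3.64 at 24 h. The arrays of each time differed by less than 0.1 while the times differed by 0.95 ± 0.07 (adjusted p 3.22e-08 by limma). It was above background on all 5 arrays, on 5 of the 11 DMSO arrays, where its highest level was -4.18, and on 3 of the 6 arrays at 10 µM. The error of 0.07 draws on all groups, and in DMSO the level lay at or near the floor of -4.41. This error and its p-value therefore do not measure the spread at 50 µM alone. Fitted on the 5 arrays of 50 µM alone, the adjusted p was 0.00798 by limma. With a floor 4 times lower it was 0.0133. By the file names the difference was 0.69 ± 0.40 (adjusted p 0.806). The difference was 0.59 with the floor raised to -3.26, an alternative added after the data were seen, and 0.23 with normexp and quantile normalisation. miR-770-3p passed under both. It did not pass with the percentile taken over all probes (0.60, adjusted p 0.0651 by limma) or in the deposited values (0.92, adjusted p 0.597). With both doses pooled the difference was 0.67 and did not pass (adjusted p 0.218).

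A further 4 risers were above background on all 5 arrays of 50 µM but on few others. miR-452-5p, from the X chromosome cluster it shares with miR-224, measured -3.09, -2.86 and -2.65 at 48 h and -3.85 and -4.09 at 24 h, a rise of 1.10 ± 0.20 (adjusted p 0.00133 by limma). miR-3102-3p measured -2.59, -2.89 and -2.71 against -3.61 and -4.15, a rise of 1.15 ± 0.26 (adjusted p 0.00651). For miR-3096b-5p the values were -2.99, -3.34 and -2.87 against -4.28 and -4.20, a rise of 1.17 ± 0.22 (adjusted p 0.00187). The remaining member, miR-6391, encoded within the transporter gene Abcc4, measured -3.02, -2.79 and -2.54 against -3.76 and -3.59, a rise of 0.89 ± 0.25 (adjusted p 0.0314). All 4 were separate between the times, and their lowest 48 h values lay above their highest DMSO values. By the file names their differences were 0.60, 0.03, 0.21 and 0.72. With the floor raised to -3.26 their rises were 0.38 (miR-452-5p), 0.52 (miR-3102-3p), 0.21 (miR-3096b-5p) and 0.47 (miR-6391), of which that of miR-3096b-5p did not pass (adjusted p 0.0807); with normexp they were 0.26, 0.27, 0.28 and 0.22, and of these 4 miR-452-5p passed. miR-3102-3p did not pass without the 24 h array of replicate 3, and miR-6391 without any of 4 of the 5 arrays (all but replicate 1 at 48 h). miR-6386, above background on 2 of 3 arrays at 48 h and both at 24 h, measured -3.71, -3.37 and -3.25 against -4.30 and -4.11. Its rise was 0.76 ± 0.17 (adjusted p 0.00651 by limma), and it did not pass without the 24 h array of replicate 2. With the floor raised to -3.26 its difference was 0.0016, and with normexp 0.14 (adjusted p 0.333). It passed under neither, nor in the deposited values (adjusted p 0.866).

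**Figure D2:**
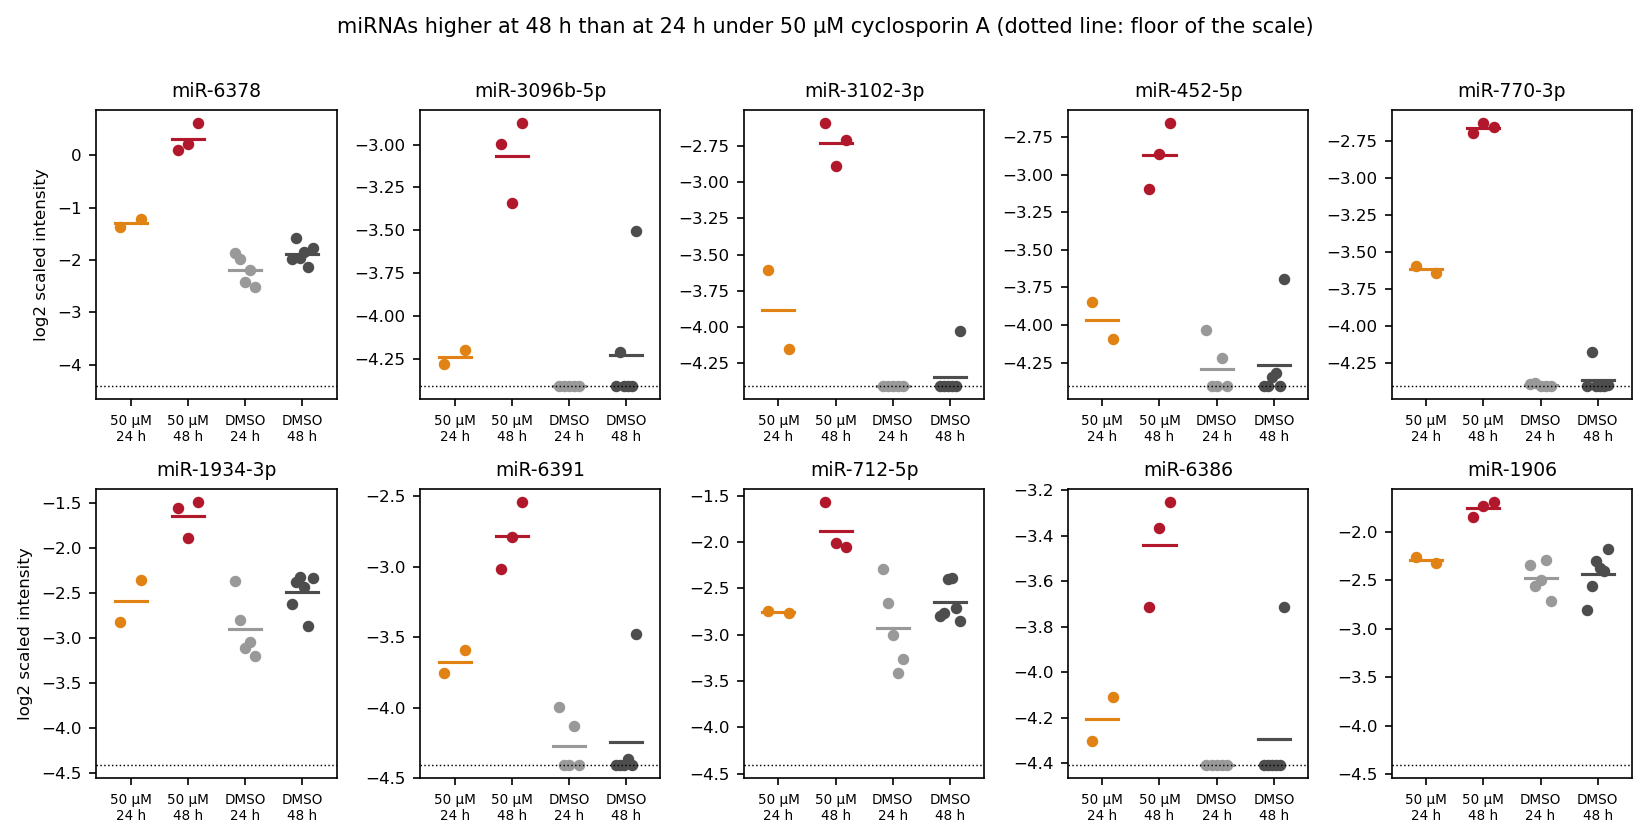
Level (log2 scaled intensity, vertical axis) of 10 rising miRNAs on each array of 50 µM and DMSO at 24 h and 48 h; points are arrays, horizontal bars group means, and the dotted line is the floor of -4.41. The 3 arrays at 48 h under 50 µM lie above the 2 at 24 h in every panel; in miR-770-3p the DMSO arrays lie at or near the floor.

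The other 10 risers were named after their values were seen, apart from miR-6351 and miR-450a-2-3p. Of all 20, 9 were above background on fewer than 3 of the 17 arrays outside 50 µM; such a miRNA could enter the test only through the 50 µM arrays, so its passing the filter is no support for a difference. miR-6351 was the clearest case of this limit, above background on none of the 17 other arrays. It measured -3.23, -2.91 and -2.63 at 48 h and -4.26 and -4.41 at 24 h (1.41 ± 0.11, adjusted p 3.22e-08 by limma). That error draws on the arrays that did not read it above background, so the p-value is no measure of the spread at 50 µM. miR-6351 did not pass with a floor 4 times lower, with the floor raised to -3.26, in the deposited values, by the file names or with both doses pooled. miR-450a-2-3p measured -3.60, -3.34 and -3.30 at 48 h and lay at the floor of -4.41 on both 24 h arrays, although 1 of these read it above background (0.99 ± 0.10, adjusted p 1.12e-06). For 3 of the 20, no 24 h array was above background and only a bound can be given: miR-6418-5p was at least 1.70-fold, miR-598-5p at least 1.45-fold and miR-675-5p, cut from the imprinted H19 transcript, at least 1.199-fold higher at 48 h on this scale. Each of the 3 was measured above background on 2 of the 3 arrays at 48 h. The rest were miR-1931 (0.84), miR-1945 (0.87), miR-23a-5p (0.61), miR-291b-5p (0.44) and miR-490-5p (0.40), each above background on 2 arrays at 48 h and 1 at 24 h. In the authors' deposited normalized values the sign turned for miR-490-5p (-1.22), miR-598-5p (-0.58) and miR-291b-5p (-0.53), and miR-291b-5p passed under 5 of 21 alternatives. All 20 risers were above background on replicates 2 and 3 at 48 h, but 9 of the 20 on replicate 1 at 48 h, the least sensitive array. Variances in this fit come from all 6 groups, and arrays held at the floor vary little; fitted on the 5 arrays alone, 18 miRNAs rose and 18 fell; 8 of those 18 rises were among the 20, and neither miR-182-5p nor miR-361-5p was among the falls.

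The 2 miRNAs that fell were miR-182-5p and miR-361-5p. miR-182-5p, of a cluster with miR-183-5p and miR-96-5p that is best known from sensory organs, measured -4.03, -3.53 and -3.87 at 48 h and -3.10 and -2.86 at 24 h. The times were separate, and the fall was 0.83 ± 0.19 on the log2 scale (1.77-fold, adjusted p 0.00651 by limma). Its cluster partners did not pass: the difference was -0.35 for miR-183-5p, named after its values were seen (adjusted p 0.241 by limma), and -0.46 for miR-96-5p (adjusted p 0.356). In both, all 48 h arrays lay below both 24 h arrays, as they did for 23.3% of all tested miRNAs. miR-361-5p measured -3.98, -3.73 and -4.01 against -3.35 and -3.32, and it fell by 0.57 ± 0.15 (1.48-fold, adjusted p 0.0227). Neither was above background on replicate 1 at 48 h. By the file names the differences were -0.43 ± 0.40 for miR-182-5p and -0.13 ± 0.25 for miR-361-5p. Without the 24 h array of replicate 3 no miRNA fell past the threshold, and with slide as a block miR-361-5p did not (adjusted p 0.187 by limma). Over 22 alternatives miR-182-5p passed under 13 and miR-361-5p under 5.

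Apart from these, 8 miRNAs had the lowest p-values among those with all 48 h arrays below both 24 h arrays. None of them passed in the fit without blocks on all 22 arrays. Counts of passing miRNAs come from that fit unless another is named. In the fit on the 5 arrays alone, miR-192-5p, miR-221-3p, miR-30a-3p and miR-21a-3p passed (adjusted p 0.02 to 0.0358 by limma). With the labels' experiment number as a block, miR-192-5p, miR-30e-5p, miR-193a-3p, miR-30a-3p and miR-30a-5p passed (adjusted p 0.0236 to 0.0415 by limma). miR-192-5p, which p53 induces and which hepatocytes carry in quantity, measured 1.33, 1.41 and 1.36 at 48 h and 1.87 on both 24 h arrays (-0.50 ± 0.18, adjusted p 0.107 by limma). The arrays of a time lay within 0.1 of each other, and all 3 at 48 h lay below every DMSO array. miR-30a-5p measured 0.20, 0.40 and 0.22 against 0.67 and 0.79 (-0.45 ± 0.16, adjusted p 0.0918), and miR-30e-5p -2.81, -2.52 and -2.85 against -2.19 and -2.23 (-0.52 ± 0.18, adjusted p 0.0907). miR-103-3p, which RefSeq lists at 2 loci, 1 of them within the gene Pank2, and which has been tied to insulin sensitivity of liver and fat, measured -1.52, -1.24 and -1.05 against -0.79 and -0.62 (-0.56 ± 0.19, adjusted p 0.0855). The passenger strand miR-30a-3p measured -4.28, -4.21 and -4.14 against -3.57 and -3.72 (adjusted p 0.0759).

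miR-193a-3p measured -1.54, -1.85 and -2.61 at 48 h and -0.99 and -1.32 at 24 h (-0.84 ± 0.30, adjusted p 0.0923 by limma). It was the miRNA that fell with both doses pooled, by 0.98 on the log2 scale (adjusted p 0.0351 by limma over 292 miRNAs), and its difference by the file names was -1.05 ± 0.31 (adjusted p 0.806). In DMSO its time difference was -0.46, so the value was negative in each treatment.

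miR-21a-3p, the passenger strand of the injury-associated miR-21a-5p, lay at the floor on all 3 arrays at 48 h and at -3.56 and -3.86 at 24 h. It was above background on none of the 48 h arrays, so the 24 h level was at least 1.22-fold higher (adjusted p 0.0877). miR-221-3p, a proliferation-associated miRNA that represses the cell cycle inhibitor p27, measured -4.41, -4.32 and -4.35 at 48 h, above background on 1 array, and -3.65 and -3.84 at 24 h (-0.61 ± 0.22, adjusted p 0.104). In both miRNAs the DMSO arrays at 48 h lay above the 48 h arrays of 50 µM.

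**Figure D3:**
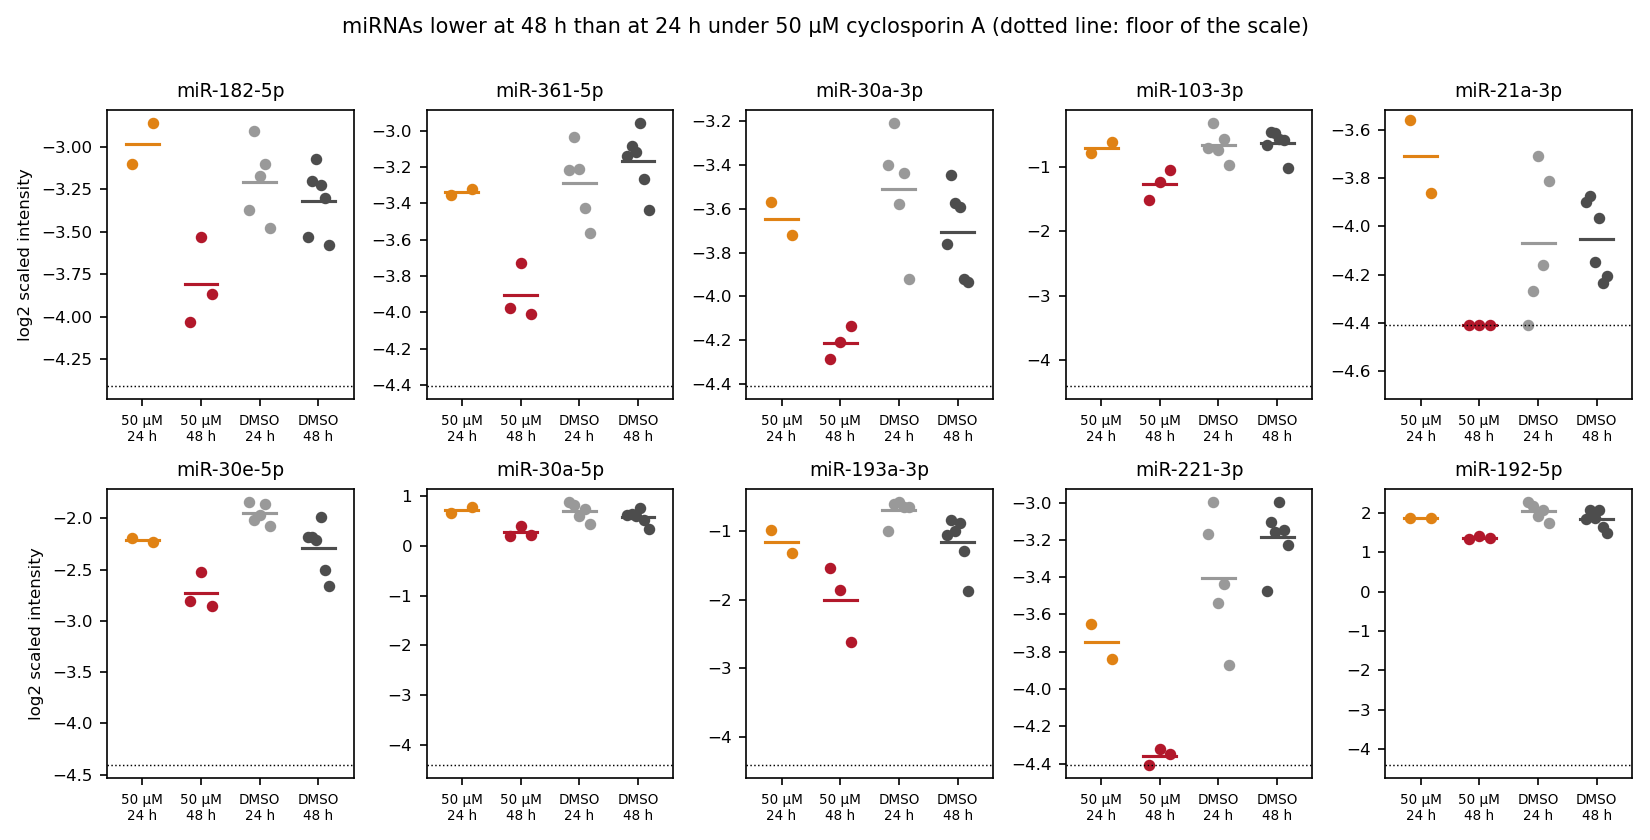
Level (log2 scaled intensity, vertical axis) of 10 miRNAs that were lower at 48 h on each array of 50 µM and DMSO at 24 h and 48 h; points are arrays, bars group means, and the dotted line is the floor of -4.41. miR-182-5p and miR-361-5p passed the test and the other 8 did not; the 2 times are separate in every panel for 50 µM and overlap for DMSO.

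No hepatocyte-enriched miRNA passed the test in the fit without blocks on all 22 arrays, although their differences had 1 sign. Other fits did call some of them. On the 5 arrays of 50 µM alone, miR-122-5p, miR-192-5p, miR-148a-3p, miR-22-3p and miR-101a-3p were among the 18 of 292 miRNAs called lower. With the experiment number as a block, 2 members passed. All 11 tested members had all 48 h arrays below both 24 h arrays (23.3% of all tested miRNAs did). Their differences ran from -0.84 to -0.30 with a median of -0.44, against 0.04 over all tested miRNAs. miR-122-5p measured 5.44, 5.43 and 5.53 at 48 h and 5.78 and 5.82 at 24 h (-0.33 ± 0.14, adjusted p 0.169 by limma), and its share of the summed miRNA signal ran from 7.10% to 7.41% at 48 h against 8.63% and 11.4% at 24 h. miR-22-3p measured 2.57, 2.71 and 2.66 against 3.07 and 3.12 (-0.45 ± 0.21, adjusted p 0.232). In DMSO 10 of the 11 were also negative, with a median of -0.22, and no member passed the test of the difference between 50 µM and DMSO. The summed level of the 12 miRNAs on the array ran from 5.80 to 5.88 at 48 h and from 6.17 to 6.21 at 24 h under 50 µM, and from 5.73 to 6.13 and 5.87 to 6.33 in DMSO. Relative to the median of all tested miRNAs, the list's median was negative under every scaling, from -0.25 to -0.68, and it was -0.43 with slide as a block and -0.51 by the file names.

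In the miR-30, miR-29, miR-15/16 and let-7 families all 20 tested members had a negative difference. Times were separate for 16 of the 20, and 0 passed in the fit without blocks on all 22 arrays. With the 5 arrays of 50 µM alone, let-7b-5p, let-7c-5p, let-7d-5p and miR-29c-3p were among the 18 miRNAs called lower. Of all 292 tested miRNAs, 132 were negative and 68 (23.3%) lay separately lower. With slide as a block the family medians were -0.25, -0.18, -0.05 and -0.03 in that order. By the file names they were -0.19, -0.22, -0.08 and -0.02. The let-7 family, which restrains growth genes, had a median of -0.23 over 9 members in 50 µM and 0.22 in DMSO; let-7a-5p measured 2.11, 2.08 and 2.14 at 48 h and 2.46 and 2.28 at 24 h (-0.26 ± 0.26, adjusted p 0.634 by limma), and let-7f-5p gave -0.18. In the authors' deposited values the let-7 median lay 0.06 above that of all tested miRNAs, the opposite side from the other scalings. The miR-30 family had medians of -0.31 and -0.05 in the 2 treatments, and its bright member miR-30c-5p gave -0.25 at 50 µM. The miR-29 family, which targets collagens, had medians of -0.32 and -0.23; miR-29a-3p gave -0.28 and miR-29c-3p -0.37 at 50 µM. The miR-15/16 family, which represses cyclins, had medians of -0.29 and -0.04; miR-15a-5p gave -0.29 and miR-16-5p -0.25. In the miR-99/100 and miR-125 families, miR-99a-5p and miR-125b-5p gave -0.42 (adjusted p 0.355) and -0.39 (adjusted p 0.354).

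The growth-promoting miR-17/miR-92a clusters differed in sign between treatments, although no member passed in either. Of the 10 tested members, 7 were negative at 50 µM with a median of -0.15, while all 10 were positive in DMSO with a median of 0.61. miR-92a-3p gave -0.12 ± 0.47 at 50 µM and 0.68 ± 0.31 in DMSO, miR-19b-3p -0.36 and 0.38, and miR-93-5p -0.18 and 0.64. None of the 10 passed the test of the difference between 50 µM and DMSO, and the 50 µM median was 0.05 with slide as a block and 0.59 by the file names. The miR-23, miR-24 and miR-27 clusters ran likewise, with medians of -0.24 at 50 µM and 0.47 in DMSO over 5 members, none of them called; the 50 µM median was -0.09 with slide as a block and 0.08 by the file names. miR-24-3p gave -0.28 and 0.47, and miR-23b-3p -0.24 and 0.14.

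**Figure D4:**
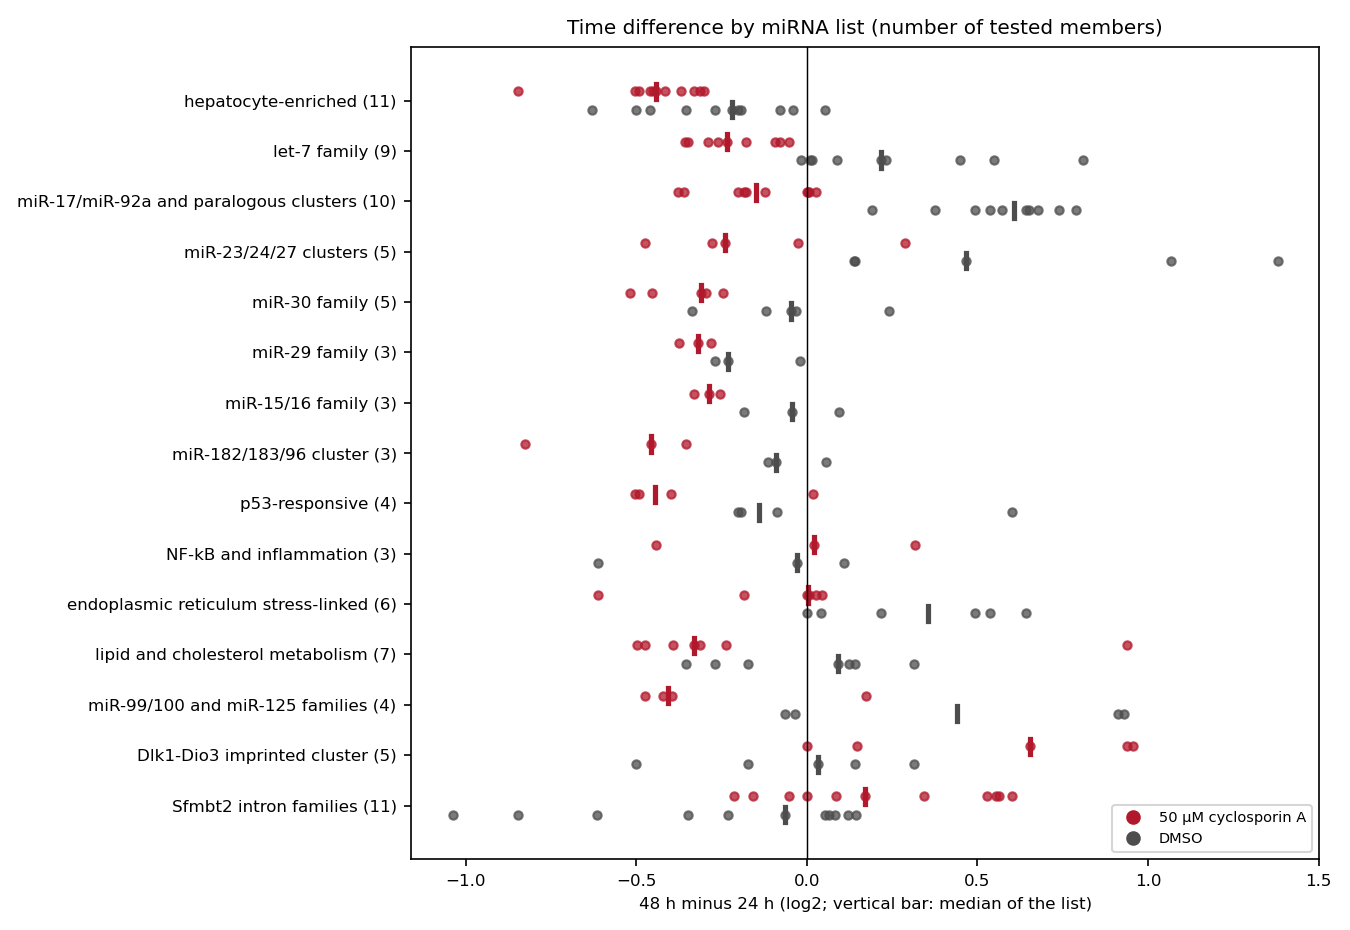
Time difference (48 h minus 24 h, log2, horizontal axis) of the tested members of each list with at least 3 of them, under 50 µM (red) and in DMSO (grey); points are miRNAs, vertical bars medians, and the number of tested members is in brackets. The hepatocyte-enriched members lie between -0.84 and -0.30 at 50 µM; the miR-17/miR-92a members are all positive in DMSO.

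Of the 36 listed miRNAs of the Dlk1-Dio3 imprinted cluster on the array, 5 were tested, 1 rose (miR-770-3p) and the median difference was 0.65. Over all 292 tested miRNAs 6.85% rose, so 1 call among 5 members is no result about the cluster. The list does not hold miR-1906, which also rose and has a copy within Meg3, and miR-1906 is not counted here. The bright member miR-494-3p measured 3.13, 3.30 and 3.56 at 48 h and 2.40 and 2.95 at 24 h (0.65 ± 0.23, adjusted p 0.0918 by limma), and miR-370-3p, named after its values were seen, gave 0.94 ± 0.51 (adjusted p 0.3). In both the times were separate, as they were on the higher side for 24.3% of all tested miRNAs. All 5 arrays of 50 µM lay above every DMSO array for miR-494-3p, while for miR-370-3p a 24 h array lay within the DMSO range. miR-134-5p gave 0.15 and overlapped. The list's median stayed above that of all tested miRNAs under every scaling, with slide as a block and by the file names, by 0.26 to 0.98.

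Stress-related lists held no called miRNA in the fit without blocks on all 22 arrays. With the experiment number as a block, miR-21a-5p and miR-192-5p were among the 10 called lower. On the 5 arrays of 50 µM alone, miR-192-5p and miR-221-3p were among the 18 called lower. miR-34a-5p, a direct p53 target, measured 0.24, 0.35 and 0.00 at 48 h and 0.34 and 0.01 at 24 h (0.02 ± 0.36, adjusted p 1), whereas miR-194-5p, which shares a transcript with miR-192-5p, gave -0.49 (adjusted p 0.149). Of the inflammation-related miRNAs, miR-21a-5p measured 4.14, 4.17 and 3.94 against 4.56 and 4.49 (-0.44 ± 0.22, adjusted p 0.255), miR-212-3p gave 0.02, and miR-155-5p, the 1 leukocyte-associated miRNA tested, 0.32 (adjusted p 0.489). miR-145a-5p, the 1 stellate marker tested, gave 0.47 ± 0.40 (adjusted p 0.575). In the list linked to endoplasmic reticulum stress, 3 of 6 members were positive and the median was 0.00; miR-25-3p gave 0.01 and miR-93-5p -0.18. The hypoxia-induced miR-210-3p measured -0.65, -0.08 and -0.18 against 0.53 and 0.17 (-0.65 ± 0.35, adjusted p 0.3), and its DMSO difference was -0.76.

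Among miRNAs tied to lipid and cholesterol metabolism, 6 of 7 were negative, all 6 separately lower (23.3% of all tested miRNAs were). miR-370-3p was the positive member, and none passed in the fit without blocks on all 22 arrays. miR-148a-3p gave -0.31 (adjusted p 0.509 by limma). With the experiment number as a block, miR-185-5p was called lower. The fit on the 5 arrays alone called miR-122-5p, miR-148a-3p, miR-185-5p and miR-130a-3p lower and miR-370-3p higher. Beside miR-103-3p, miR-107-3p gave -0.40, and miR-130a-3p gave -0.39 (adjusted p 0.431). miR-222-3p, the partner of miR-221-3p, lay at the floor on all 5 arrays. The miRNAs of the Sfmbt2 intron, such as miR-466i-5p and miR-669n, had 11 tested members of 61, 7 of them positive with a median of 0.17, and none passed; their median lay below that of all tested miRNAs by the file names. The bright miR-466i-5p measured 1.16, 1.29 and 0.40 against 1.58 and 0.63, and miR-669n -1.59, -1.79 and -3.07 against -0.86 and -3.01, so the times overlapped in each.

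The second question was whether these time differences departed from those in cells that had only the solvent. The 5 arrays of 50 µM and the 11 DMSO arrays share no array, and the difference of the differences was tested in the same fit. For 11 miRNAs (3.77% of those tested) the change at 50 µM was the higher and for 1 (0.342%) the lower. DMSO alone had 1 rise (0.342%), miR-99b-5p (named after its values were seen), and no fall. In DMSO 32 rises and 13 falls had an unadjusted p under 0.05. With the labels' experiment number as a block, DMSO had 22 rises and 8 falls, beside 25 and 10 at 50 µM. The difference from DMSO was then called higher for 17 miRNAs and lower for 15. miR-6378, above background on every array, changed by 1.29 ± 0.24 more at 50 µM than in DMSO (adjusted p 0.0032 by limma), where its difference was 0.31 ± 0.14. For the other 5 with the largest differences, most DMSO arrays were not above background, so the value is set against the floor rather than against a measured change in DMSO: miR-452-5p gave 1.07, miR-450a-2-3p 1.06, miR-3096b-5p 0.98 and miR-770-3p 0.92. miR-6351 was above background on no DMSO array, so its departure from DMSO was not measured. miR-361-5p was the 1 miRNA on the lower side, with -0.69 ± 0.18 (adjusted p 0.0352): its DMSO difference was 0.13. With slide as a block 7 miRNAs passed, all of them higher at 50 µM, and by the file names or with a floor 4 times lower 0 did. The 12 calls became 7, 6 and 6 without the 24 h array of replicate 2, that of replicate 3 and the 48 h array of replicate 3 at 50 µM, and 31 without replicate 6 of DMSO at 48 h. Of the 11, 6 were above background on fewer than 3 arrays outside 50 µM.

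**Figure D5:**
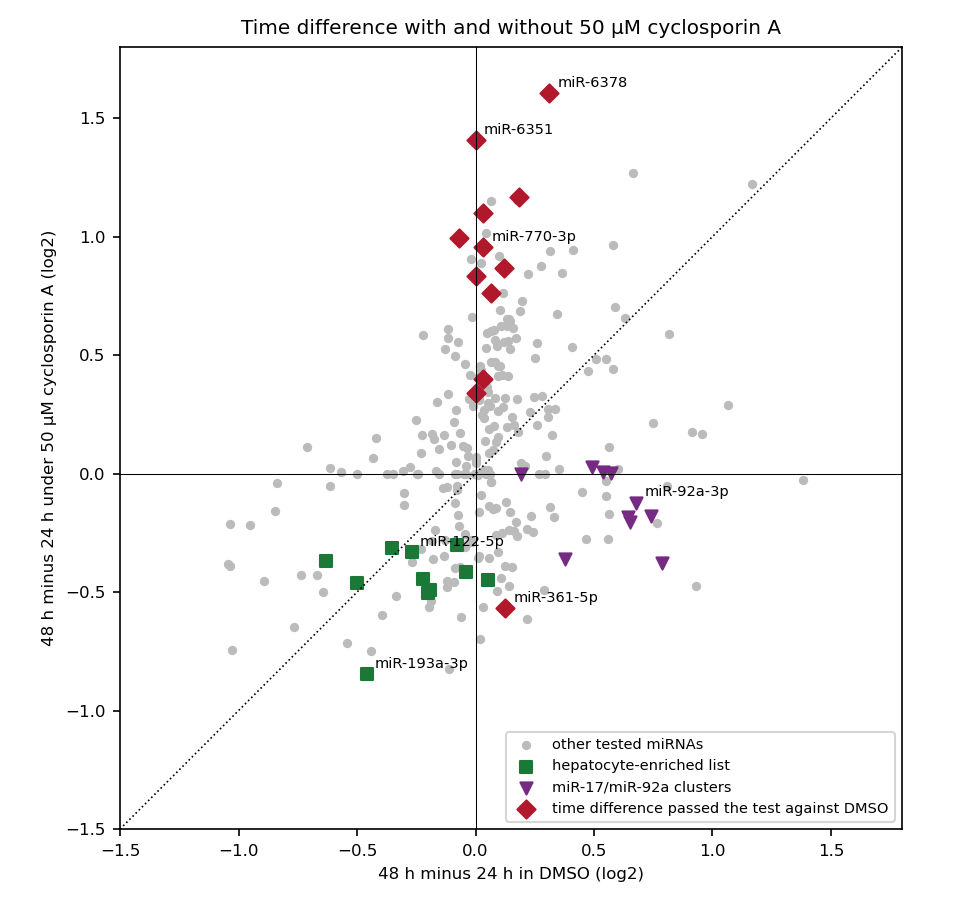
Time difference under 50 µM (vertical axis) against that in DMSO (horizontal axis), both 48 h minus 24 h in log2, for the 292 tested miRNAs; the dotted line marks equal differences. The 11 red diamonds above the line and miR-361-5p below it passed the test of the difference; the hepatocyte-enriched members are negative at 50 µM and, but for 1, in DMSO.

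Against 10 µM, the time change at 50 µM was again higher for 11 miRNAs (3.77%) and lower for 1 (0.342%). This comparison uses the same 5 arrays of 50 µM as the former, so the 2 counts are not independent. miR-6378, above background on every array, differed by 1.23 ± 0.27 (adjusted p 0.0145 by limma). miR-3102-3p (1.52), miR-3096b-5p (1.28) and miR-450a-2-3p (0.96) were above background on 1, 2 and 1 of the 6 arrays at 10 µM, so their values too are set against the floor, and miR-6351 was above background on none of the 6. The 1 lower miRNA was miR-182-5p, above background on all 6, with -0.93 ± 0.25 (adjusted p 0.0416): it differed by 0.11 between the times at 10 µM. Here 4 of the 5 arrays at 50 µM are ones filed under 10 µM. The 12 calls became 6 without either 24 h array of 50 µM, and 7 without the 48 h array of replicate 3 at 50 µM or the 24 h array of replicate 2 at 10 µM.

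Some bright miRNAs had large positive differences that did not pass. miR-5105, chosen for mention after its values were seen, gave 1.27 ± 0.55 on the log2 scale (adjusted p 0.208 by limma), with a share of summed signal of 4.43% to 7.18% at 48 h and of 2.12% and 2.92% at 24 h. miR-6243, likewise chosen, gave 0.96 ± 0.43 (adjusted p 0.214) and took 14.7% to 16.5% at 48 h and 8.16% and 9.03% at 24 h, and in DMSO at most 8.22% at 48 h. The times were separate for both at 50 µM. An exact permutation of 3 against 2 arrays cannot give a two-sided p under 0.2, so each call above rests on the spread pooled over the 6 groups.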

How the data were processed

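The data were 22 single-colour Agilent mouse miRNA arrays on 3 slides, which the file headers say were read with Feature Extraction 10.7.3.1, and a deposited value table of log2 intensities normalized by the authors, for whose work the submitters' processing notes name R 2.15.2; other processing steps are not given in the sources used here. RNA integrity numbers were over 8 per the labels' protocols. A further 2 arrays of the 24 in the design text were not analysed here. Each value-table column was matched to the array with the same ranks of total gene signal (rank correlation 1; highest with any other array 0.968). In 16 of 22 columns the array was one filed for a different sample. Groups follow the column names.

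The deposited processed signal, a background-corrected intensity, was averaged over the clean non-control spots of a probe. Each array was scaled by the 75th percentile (188 to 605) of the 281 probes above background on every array; values under 0.0471 were set to it before log2. A probe was above background when a share of at least 0.5 of its spots was, and the brightest probe stood for its miRNA. Tests covered 292 of 1247 miRNAs, those above background on at least 3 arrays. The number of arrays limits the precision. limma 3.58.1 in R 4.3.3 fitted 6 groups on 22 arrays, with Benjamini-Hochberg adjustment over 292 miRNAs and calls at 0.05; the script was tested on simulated data. A bound ("at least") compares the brighter group's mean with the dimmer group's mean of the highest of its own signal, the floor and the lowest signal above background on each array.

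The miRNAs described were, among called miRNAs with separate times and above background throughout 1 group, up to 12 rises and 12 falls, filled to 10 falls by lowest p; the 6 largest called differences from DMSO and from 10 µM; called and the 2 brightest members of 24 lists; and 6 fixed liver and stress miRNAs. Members and lists were chosen with earlier results of these data known. Other scalings, filters, floors, slide and replicate blocks, the file names and leaving out arrays were tried as alternatives.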

Additional observations from a re-analysis of the deposited data

Results flagged for a closer look

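The change with time at 50 µM differed from that in DMSO, by the test of the difference in limma (adjusted p under 0.05), for 12 miRNAs: miR-6351 (1.41), miR-770-3p (0.92), miR-450a-2-3p (1.06), miR-1931 (0.84), miR-6378 (1.29), miR-6418-5p (0.70), miR-452-5p (1.07), miR-675-5p (0.34), miR-1945 (0.75), miR-361-5p (-0.69), miR-490-5p (0.37) and miR-3096b-5p (0.98), all on the log2 scale with its floor. Of the 11 higher ones, 6 were above background on fewer than 3 of the 17 arrays outside 50 µM, and miR-6351 on none, so these values are set against the floor and not against a measured change. It differed from that at 10 µM for 12 miRNAs: miR-6351 (1.41), miR-770-3p (0.73), miR-450a-2-3p (0.96), miR-1931 (0.87), miR-6418-5p (0.76), miR-6378 (1.23), miR-3102-3p (1.52), miR-3096b-5p (1.28), miR-1945 (0.87), miR-490-5p (0.43), miR-182-5p (-0.93) and miR-675-5p (0.34); of the 11 higher ones, 7 were above background on fewer than 3 of those 17 arrays. Both comparisons use the same 5 arrays of 50 µM.

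In the DMSO groups, 8 of the 40 sets of values checked for the 20 miRNAs described held an array far from its neighbours by Dixon's 95% critical value. Chance passes that value in about 1 set of 20 where values are not held at a floor. For miR-3102-3p and miR-6386 the nearest other array lay at the floor of -4.41, so the 8 of 40 cannot be set against that rate. Since 6 of the 8 come from 1 array, the sets are also not independent. At 48 h replicate 6 was that array for miR-3096b-5p (-3.50), miR-3102-3p (-4.02), miR-452-5p (-3.69), miR-6391 (-3.48), miR-6386 (-3.71) and miR-103-3p (-1.01). The others were miR-770-3p on replicate 2 at 48 h (-4.18) and miR-193a-3p on replicate 1 at 24 h (-1.004). Replicate 6 at 48 h had 286 miRNAs above background, the most of the 6 DMSO arrays of that time. Without it, 31 miRNAs rather than 12 differed in time change between 50 µM and DMSO.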

How the results depend on the processing

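For the time change at 50 µM, the 22 calls became 7 with the percentile taken over all probes, 10 with normexp and quantile normalisation, 5 with the deposited value-table values, 3 with a floor 4 times lower, 36 with the 5 arrays alone and 0 by the file names. Among alternatives added after the data were seen, 6 were called over the 175 miRNAs above background on all 5 arrays, 16 with a floor of -3.26, and 1 with both doses pooled. Leaving out 1 array gave 13 (without the 24 h array of replicate 2) to 26 calls, and 14 without that of replicate 3. The 12 differences from DMSO became 4 (all probes), 2 (normexp), 1 (value table), 0 (lower floor), 7 (slide as a fixed block) and 0 (file names), and 6 to 31 when 1 array was left out. The 12 differences from 10 µM became 5 with quantile normalisation and 6 to 18 with 1 array left out; the 1 call in DMSO became 0 with quantile normalisation and 0 to 8 with 1 array left out. The cause of these changes was not tested. No miRNA described at length reversed its direction, and of 229 alternative values of the 10 risers 85 lost the call. Of the 10 fallers, only miR-182-5p and miR-361-5p had a call to lose. They passed under 13 and 5 of 22 alternatives each, and all 26 lost calls among the 224 values of the 10 fallers were theirs. The other fallers, not called in the main fit, passed in 15 of their values.

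The labels number the experiments but do not say that a number marks a shared batch or animal. Deviations from the group means correlated by 0.27 on average between arrays of the same number (50 of 66 pairs over 0.1) and by -0.13 between others, but not every array correlated best with one of its own number, and the numbers were not taken as a pairing. With the experiment number as a replicate block, 35 miRNAs were called for time at 50 µM (25 higher and 10 lower, with miR-192-5p, miR-30e-5p, miR-193a-3p, miR-30a-3p and miR-30a-5p among the lower), 32 for the difference from DMSO, 21 for that from 10 µM and 30 in DMSO. Signal over background limits the dim miRNAs: the 48 h arrays of 50 µM ranged from 176 to 339 miRNAs above it.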
